A study of Mus musculus with 16 samples.

Results

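Transcripts of 9 enzymes that make or break down heme were followed step by step in *APOE3* and *APOE4* brain endothelial cells. The 9 genes were taken by name, in pathway order, from a count table of 39057 genes, and all 9 were among the 12481 genes with enough reads to be tested. Synthesis is covered by Alas1, Alad, Urod, Cpox, Ppox and Fech, and breakdown by Hmox1, Blvra and Blvrb. The cells were primary cultures from the cortex of targeted replacement mice, in which the coding part of mouse Apoe is replaced throughout the body by human *APOE3* or *APOE4* under the mouse promoter, so both genotypes carried a human gene and neither was wild type. There were 8 cultures per genotype, 4 from males and 4 from females, each from the brain of 1 animal, 21 to 28 days old by the labels. Every culture was freed of red blood cells by washing, selected with puromycin at 8 µg/ml, a drug that brain endothelial cells pump out and most other cells do not survive, grown to confluence and left untreated.

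Heme is an iron-carrying ring that serves oxygen carriers, cytochromes of the respiratory chain and many detoxifying enzymes. Its synthesis starts in the mitochondrion, where Alas1 makes the first precursor and sets the pace of the pathway outside red cells, moves to the cytosol for the steps that include Alad, Uros and Urod, and returns to the mitochondrion, where Cpox and Ppox oxidize the ring and Fech inserts the iron. Heme oxygenase opens the ring and releases iron, carbon monoxide and biliverdin, and biliverdin reductases turn biliverdin into bilirubin, an antioxidant. In vessels, heme oxygenase 1 is known as a protective enzyme that is induced by heme and by oxidative stress.

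The sequences upstream of Blvrb, the member with the largest difference between genotypes, and of Ppox, the synthesis enzyme that was lower with *APOE4*, are shown first because these transcripts moved the same way. Each is the 250 bases before the start in RefSeq's promoter table, build GRCm38.p6, written 5′ to 3′ on the strand of the gene. The Blvrb window is chr7:27447728-27447977 on the plus strand and the Ppox window is chr1:171281187-171281436 on the minus strand. Capitals mark GC boxes, the letters GGGCGG or their reverse complement CCGCCC, a motif bound by Sp1-type factors.
Blvrb: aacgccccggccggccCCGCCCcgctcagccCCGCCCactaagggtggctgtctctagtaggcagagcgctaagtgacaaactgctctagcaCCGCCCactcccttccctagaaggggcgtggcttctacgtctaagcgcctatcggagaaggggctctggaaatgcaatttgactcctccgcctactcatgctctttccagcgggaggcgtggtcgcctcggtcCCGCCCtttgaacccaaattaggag
Ppox: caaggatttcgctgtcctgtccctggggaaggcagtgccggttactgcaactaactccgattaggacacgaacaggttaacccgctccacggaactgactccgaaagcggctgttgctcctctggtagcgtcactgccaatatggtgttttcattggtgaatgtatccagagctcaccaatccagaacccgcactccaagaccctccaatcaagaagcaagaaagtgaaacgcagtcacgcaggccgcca
The Blvrb window held 4 GC boxes, starting 234, 219, 158 and 25 bases before the start, and the Ppox window held none. Of 32851 promoters in the table, 32.7% held a GC box within the same 250 bases. GC content was 62.0% in the Blvrb window and 53.6% in the Ppox window, against a median of 52.4% over all promoters. Neither window held an antioxidant response element core (TGACNNNGC, in 10.2% of all promoters), an E-box (CACGTG, 6.02%), a Rev-Erb and ROR site (AGGTCA, in 4607 of the 32851) or a TATA box (TATAAA, 12.4%), with both strands searched. Among the other members in the table, which held 7 of the 9, GC boxes were found as well. The Alad window held 6, those of Alas1 and Urod 1 each, and those of Cpox and Blvra none. The windows of Alad and Urod also held an E-box and that of Blvra an antioxidant response element core. These matches are letters in a window and were not tested for binding.

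Libraries held 12717847 to 18624417 counted reads, 14276942 to 16603076 in *APOE3* and the wider range in *APOE4*, and no 2 libraries were identical. Human *APOE*, the replaced gene, was read in all of them at 1172 ± 174 counts scaled to library size (CPM; SD, n = 8) in *APOE3* and 796 ± 134 CPM in *APOE4* cells (log2 fold change, log2FC, -0.56, SE 0.0986, adjusted p = 0.00542). The sum of 15 brain endothelial markers was 16368 to 17340.3 CPM in *APOE3* and 16004 to 17468 CPM in *APOE4* libraries, with every marker read. Of the markers, 1, Egfl7, a protein secreted by endothelial cells, was lower with *APOE4*, at 1357 ± 66.0 and 1212 ± 51.7 CPM (log2FC -0.16, SE 0.0351, adjusted p = 0.00835), and none of the other markers of this list was called. Over all tested genes, 6.09% were lower. In log2FC, 11 of the 15 markers were below 0 and 4 above, at a median of -0.041. Of 10 red blood cell markers, 9 had rows, each with at most 3 counts in any library, and 6 of them, including Hba-a1 and Hba-a2, were at 0 in all 16 libraries. Their sum reached 0.181 CPM in *APOE3* and 0.199 CPM in *APOE4* libraries. The sum of 12 microglia and macrophage markers was 8.11 to 10.6 CPM and 7.05 to 10.4 CPM, with P2ry12 and C1qa at 0 throughout. Most of this sum came from Cd68 (means 6.29 and 6.20 CPM) and Mrc1 (2.17 and 1.77 CPM), both read in every library. In bulk cultures such as these, fewer cells of a type and less RNA per cell cannot be told apart.

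Hmox1 was by far the most abundant member. Per kilobase of exon, the scale on which genes can be compared, Hmox1 stood at 147 ± 11.4 CPM in *APOE3* and 128 ± 10.4 CPM in *APOE4* cells, at the 97.9th percentile of all tested genes. Below it in *APOE3* cells came Alas1 (19.9 ± 2.62), Blvrb (16.5 ± 3.64), Alad (15.2 ± 0.719), Urod (9.89 ± 0.678), Ppox (9.08 ± 0.807), Blvra (6.61 ± 0.843), Cpox (2.35 ± 0.200) and Fech (1.78 ± 0.150 CPM per kilobase). By mean ± SD, Blvrb overlapped both Alas1 and Alad, which did not overlap each other, and Urod overlapped Ppox. In *APOE4* cells Blvrb, at 10.5 ± 1.58 CPM per kilobase, lay below Alad at 15.2 ± 1.40. Exon length here is the union of all annotated exons, 13838 bases for Fech and 1751 for Hmox1, so genes with long alternative exons are placed low on this scale.

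With *APOE4*, 1 of the 9 enzymes was higher (Alas1) and 3 were lower (Ppox, Hmox1 and Blvrb), at an adjusted p under 0.05 in edgeR's quasi-likelihood test. That is 4 of 9, where 12.8% of all tested genes differed. Of all tested genes, 6.71% were higher and 6.09% lower with *APOE4*. Without adjustment, 6 of the 9 enzymes and 3617 genes had p under 0.05. The median log2FC of the members was -0.030, beside -0.00022 over all genes, and the median size was 0.17 beside 0.089. For none of the 9 did the libraries of the genotypes separate fully, which 0.625% of the tested genes did. Since the 9 enzymes were known to include differing genes when they were chosen, these counts describe them only.

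**Figure D1:**
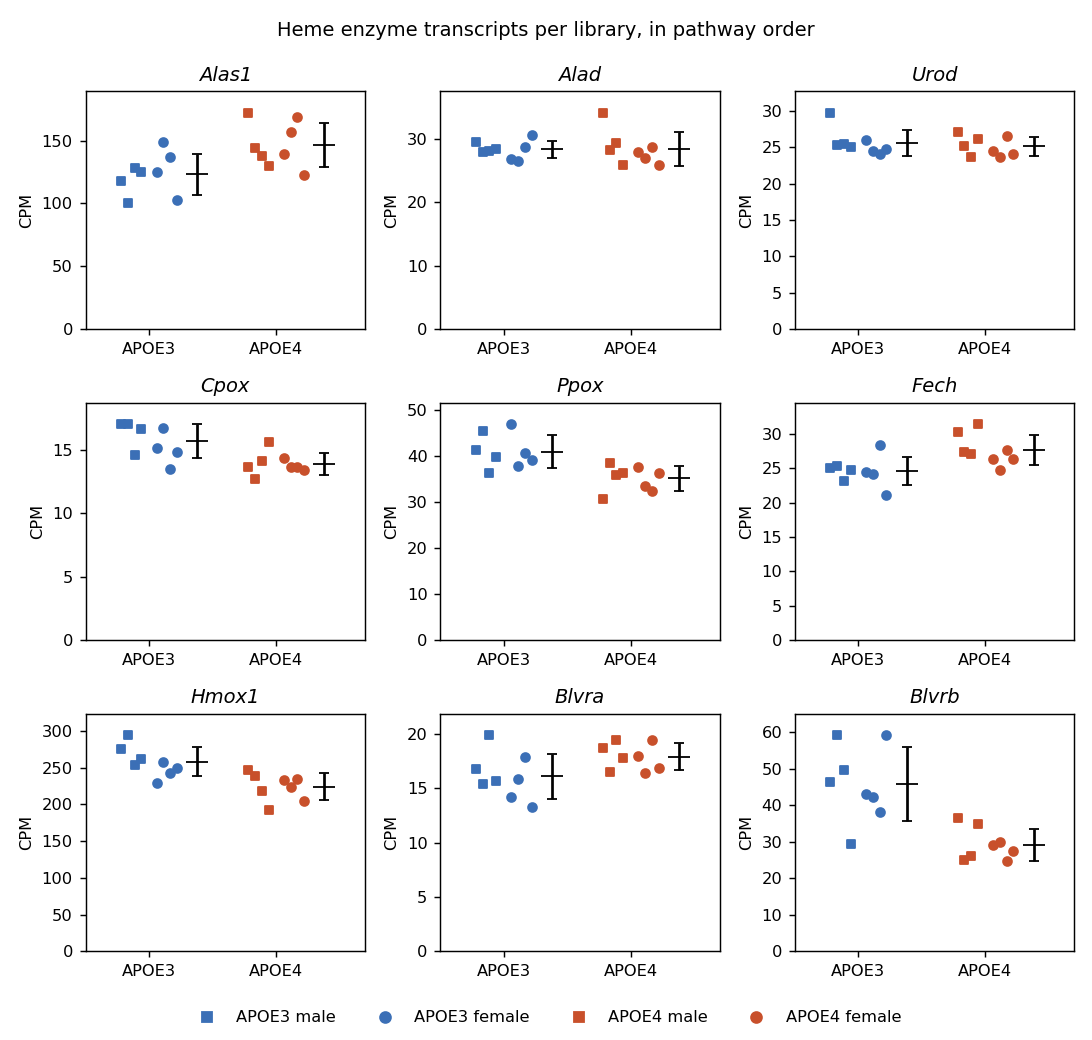
Transcript level of each enzyme in every library, in CPM on a linear axis from 0, with males and females as different symbols and bars for the mean ± SD of 8 libraries. Blvrb fell from 46.0 to 29.2 CPM, and for Ppox, Hmox1 and Blvrb all 8 *APOE4* libraries sat under the median of *APOE3*.

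The first enzyme, Alas1 (ENSMUSG00000032786.16, minus strand of chromosome 9, 106233455 to 106248654) rose with *APOE4*. Its lowest, median and highest *APOE3* libraries had 100.0, 125 and 149 CPM, and the *APOE4* libraries 123, 142 and 172 CPM. The groups overlapped, but 7 of 8 *APOE4* libraries lay above the *APOE3* median and 3 above every *APOE3* library. The mean rose from 123 ± 16.2 to 146 ± 17.7 CPM, by 19.0% (log2FC 0.25, SE 0.0788, 95% interval 0.086 to 0.41, adjusted p = 0.0414). This call sat close to the threshold: it was lost without *APOE3* replicate 25, 26, 28, 30 or 33 and without *APOE4* replicate 35, 39, 40 or 41, with adjusted p up to 0.0950 and log2FC values of 0.21 to 0.29 over all 16 omissions. Alas2, the form of red cell precursors, did not exceed 1 count in any library, so no test was run.

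The cytosolic steps that follow were close to equal between genotypes. Alad (ENSMUSG00000028393.10, chromosome 4 from 62509169 to 62519918), which joins precursor molecules into porphobilinogen, ranged from 26.5 over a median of 28.3 to 30.6 CPM in *APOE3* and from 25.9 over 28.1 to 34.1 CPM in *APOE4* libraries. Both groups were centered on the same level, and 1 *APOE4* library, replicate 35, was the highest of all. The log2FC was 0.00042 (SE 0.0533, 95% interval -0.11 to 0.11, adjusted p = 0.997). Urod (ENSMUSG00000028684.14, chromosome 4 from 116989965 to 116994413), which removes carboxyl groups from the ring, had a lowest, median and highest of 24.1, 25.2 and 29.7 CPM in *APOE3* and 23.7, 24.8 and 27.1 CPM in *APOE4* libraries. The ranges overlapped, with *APOE3* replicate 25 above all other libraries and 3 *APOE4* libraries below every *APOE3* library. Its log2FC was -0.030 (SE 0.0494, 95% interval -0.13 to 0.073, adjusted p = 0.734).

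Uros, which is no member and acts before Urod, was also not called. It closes the precursor to a ring and had 6.71 ± 0.506 and 7.31 ± 1.52 CPM (log2FC 0.13, SE 0.110, adjusted p = 0.468). Its *APOE4* libraries spread more widely, from 5.11 to 9.46 CPM, with 3 above and 1 below every *APOE3* library.

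At the return to the mitochondrion, Cpox and Ppox both had lower means with *APOE4*, and only Ppox passed the test. Cpox (ENSMUSG00000022742.5, chromosome 16 from 58670292 to 58717636), the coproporphyrinogen oxidase, had a lowest, median and highest of 13.5, 15.8 and 17.0 CPM in *APOE3* and 12.7, 13.6 and 15.6 CPM in *APOE4* libraries. Each of the 8 *APOE4* cultures was under the median of *APOE3*, yet only 2 were below every *APOE3* library. The log2FC was -0.17 (SE 0.0618, 95% interval -0.30 to -0.046), and the adjusted p of 0.0657 missed the threshold. It passed without *APOE3* replicate 32 (adjusted p = 0.0350) or *APOE4* replicate 38 (adjusted p = 0.0416).

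Ppox (ENSMUSG00000062729.11, chromosome 1 from 171275990 to 171281186), which completes the aromatic protoporphyrin ring, fell with *APOE4*. Its *APOE3* libraries had 36.4, 40.3 and 47.0 CPM at the lowest, median and highest, and its *APOE4* libraries 30.8, 36.2 and 38.5 CPM. Of the 8 *APOE3* libraries, 6 were above every *APOE4* library. The mean dropped from 41.0 ± 3.64 to 35.2 ± 2.69 CPM, by 14.1% (log2FC -0.22, SE 0.0570, 95% interval -0.34 to -0.10, adjusted p = 0.0182), and the call held in all 16 fits that left out 1 library. Ppox shares 791 exon bases, 17.52% of its exon length, with B4galt3 on the opposite strand. B4galt3, a galactosyltransferase, had a log2FC of -0.14 (SE 0.0556, adjusted p = 0.0939), and without a stated strand setting the reads of the shared stretch cannot be told apart.

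Fech (ENSMUSG00000024588.8, chromosome 18 from 64452914 to 64490251), the ferrochelatase of the last step, had higher means with *APOE4* without passing the test. The lowest, median and highest libraries had 21.1, 24.7 and 28.4 CPM in *APOE3* and 24.7, 27.2 and 31.4 CPM in *APOE4* cells. Each of the 8 *APOE4* cultures exceeded the median of *APOE3*, and 2 lay above every *APOE3* library. The log2FC was 0.17 (SE 0.0586, 95% interval 0.045 to 0.29, adjusted p = 0.0638). It passed without *APOE3* replicate 32 (adjusted p = 0.0280) or *APOE4* replicate 40 (0.0499), and with DESeq2's Wald test (0.0499).

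Sorted by place, a grouping made after the values were seen, the 4 mitochondrial steps (Alas1, Cpox, Ppox, Fech) had log2 differences of 0.17 to 0.25 in size, in both directions, with 2 called. The 3 cytosolic steps compared (Alad, Uros, Urod) had differences of 0.00042 to 0.13 in size, with 0 called. Over all tested genes, 12.8% were called, and groups this small cannot be told apart by such counts. The largest of the cytosolic group, Uros, was also the least precise.

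Heme oxygenase 1 and biliverdin reductase B were both lower with *APOE4*. Hmox1 (ENSMUSG00000005413.8, chromosome 8 from 75093621 to 75100589), the inducible oxygenase, had a lowest, median and highest of 229, 256 and 294 CPM in *APOE3* and 193, 228 and 247 CPM in *APOE4* libraries. All 8 *APOE4* libraries were under the *APOE3* median, 4 of them under every *APOE3* library. The mean went from 258 ± 20.0 to 224 ± 18.2 CPM, a decrease by 13.1% (log2FC -0.20, SE 0.0527, 95% interval -0.31 to -0.093, adjusted p = 0.0180), and the call held in all 16 omissions. Hmox2, the constitutive oxygenase and not a member, had 51.1 ± 3.30 and 54.7 ± 2.70 CPM (log2FC 0.10, SE 0.0429, adjusted p = 0.133). Its exons overlap those of Cdip1 on the opposite strand by 892 bases, 40.23% of its length, and Cdip1 was lower with *APOE4* (log2FC -0.24, adjusted p = 0.0178).

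Of the 2 biliverdin reductases, Blvrb was lower with *APOE4* and Blvra did not pass the test. Blvra (ENSMUSG00000001999.15, chromosome 2 from 127070665 to 127097084), which reduces the main adult isomer of biliverdin, had 13.3, 15.8 and 19.9 CPM at the lowest, median and highest in *APOE3* and 16.4, 17.9 and 19.5 CPM in *APOE4* libraries. The *APOE4* cultures all exceeded the median of *APOE3* but stayed below the highest *APOE3* library, replicate 27. The log2FC was 0.15 (SE 0.0731, 95% interval -0.0035 to 0.30, adjusted p = 0.184).

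Blvrb (ENSMUSG00000040466.16, chromosome 7 from 27447978 to 27466144), which reduces other biliverdin isomers and also flavins, showed the widest gap of the 9. Its *APOE3* libraries had a lowest, median and highest of 29.5, 44.7 and 59.2 CPM, and its *APOE4* libraries 24.7, 28.3 and 36.5 CPM. Of the 8 *APOE3* libraries, 7 were above every *APOE4* library, and *APOE3* replicate 28 alone, at 29.5 CPM, fell within the *APOE4* range. The mean dropped from 46.0 ± 10.1 to 29.2 ± 4.38 CPM, by 36.5% (log2FC -0.66, SE 0.119, 95% interval -0.90 to -0.41, adjusted p = 0.00574). By size this was the 29th of the 760 genes that were lower with *APOE4*. The call held in all 16 omissions, with log2FC values of -0.73 to -0.59. Blvrb also varied most among the members, 2.40 times between the highest and lowest library, compared with 1.25 times for Urod.

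**Figure D2:**
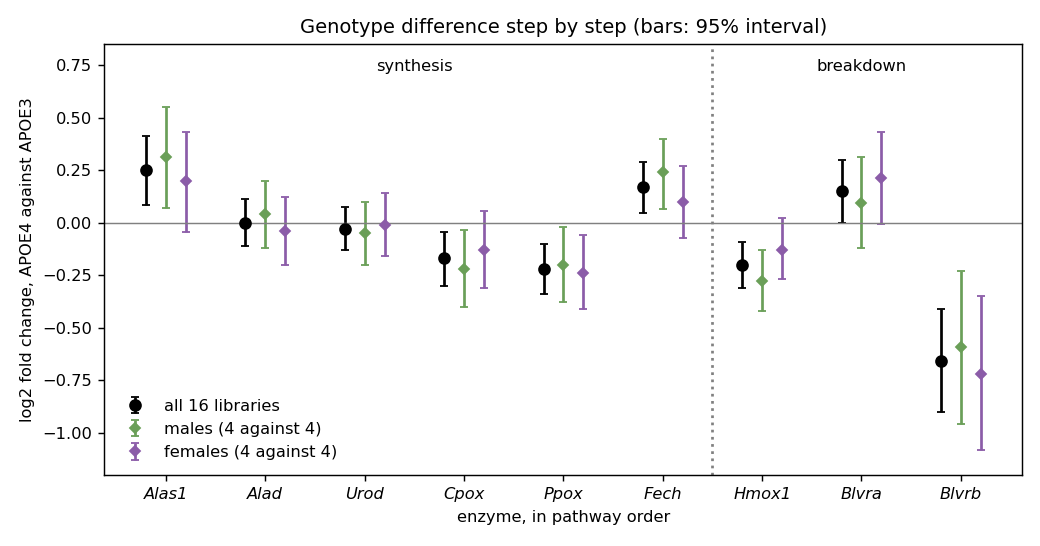
Log2FC of *APOE4* against *APOE3* for the 9 enzymes in pathway order, over all libraries and within each sex, with bars for the 95% interval and a dotted line between synthesis and breakdown. Blvrb lies lowest at -0.66, while Alad and Urod lie at 0.00042 and -0.030.

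To compare neighboring steps within the same library, the log2 ratio of each enzyme to the one before it was tested between genotypes by two-sided exact permutation over 12870 assignments, with p adjusted over 17 single values. The ratio of Fech to Ppox was 1.31 times as high in *APOE4* as in *APOE3* cells (log2 difference 0.39, exact adjusted p = 0.00396), and 7 of 8 *APOE4* libraries were above every *APOE3* library. The ratio of Blvrb to Blvra was 0.580 times that in *APOE3* cells (log2 difference -0.79, exact adjusted p = 0.00396), with 6 of 8 *APOE4* libraries below every *APOE3* library. At both places one transcript gained on its neighbor, Fech on Ppox and Blvra on Blvrb.

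Around Hmox1, the ratio of Hmox1 to Fech was lower with *APOE4* (log2 difference -0.37, exact adjusted p = 0.00440) and that of Blvra to Hmox1 higher (0.36, exact adjusted p = 0.00740). At the start of the pathway, the ratio of Alad to Alas1 was lower (-0.25, exact adjusted p = 0.0471), but this call remained only in the omissions of *APOE3* replicate 31 or 32 or *APOE4* replicate 37, with log2 differences of -0.31 to -0.20 over all 16 omissions. Cpox to Urod differed by -0.14 (exact adjusted p = 0.0624), Ppox to Cpox by -0.046 (0.659) and Urod to Alad by -0.027 (0.701). Ratios that share an enzyme are not independent of each other.

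**Figure D3:**
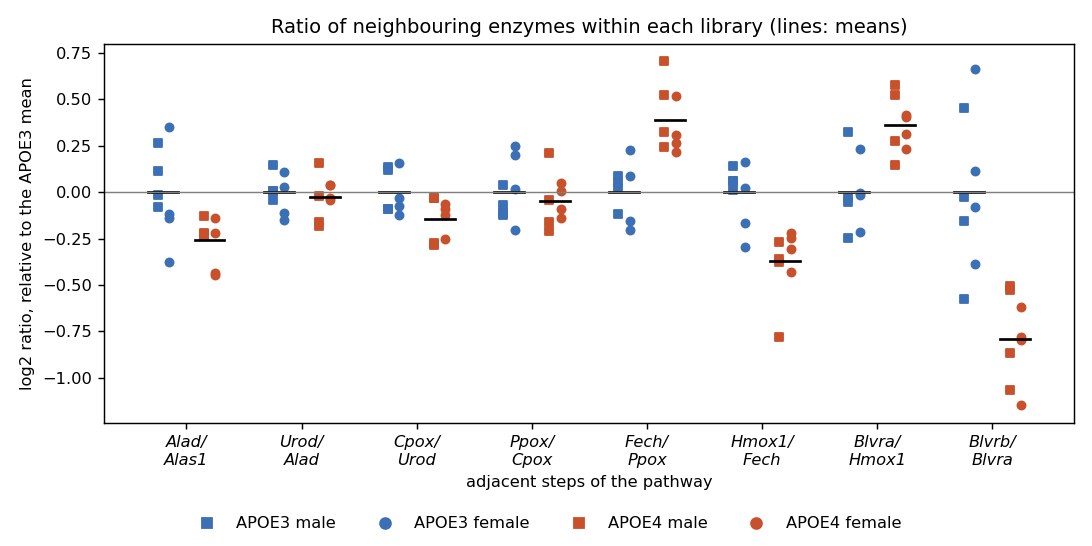
Log2 ratio of each enzyme to the one before it in the pathway, per library and relative to the *APOE3* mean, with lines for the means of 8 libraries. Fech to Ppox stands highest in *APOE4* at 0.39 above the *APOE3* mean and Blvrb to Blvra lowest at 0.79 below it.

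Within each sex the design had 4 cultures against 4. In males 0 of the 9 enzymes and 0% of tested genes passed, with 6 enzymes and 1775 genes at an unadjusted p under 0.05 and 35 genes called by DESeq2. In females 0 of 9 and 0% passed, with 2 enzymes and 2428 genes at an unadjusted p under 0.05 and 418 genes called by DESeq2. Blvrb had 46.2 ± 12.4 CPM in *APOE3* and 30.6 ± 5.85 CPM in *APOE4* males (n = 4), and 45.7 ± 9.26 and 27.8 ± 2.30 CPM in females. Its log2FC values were -0.59 in males (SE 0.175, edgeR adjusted p = 0.215) and -0.72 in females (SE 0.175, edgeR adjusted p = 0.0617), and DESeq2 called it in females (adjusted p = 0.00711). Of the 16 omissions, edgeR called it in females in 2, without *APOE3* replicate 31 (0.0264) or *APOE4* replicate 35, a male library (0.0458). Over all 16 the edgeR adjusted p in females reached 0.219. Every enzyme but Alad had the same sign in both sexes.

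The difference between the sexes' genotype effects was tested as an interaction, and 0 of 9 enzymes and 0% of genes passed, with 0 enzymes and 345 genes at an unadjusted p under 0.05 and 0 genes called by DESeq2. For Blvrb that difference, females minus males, was -0.12 with a 95% interval of -0.64 to 0.40. For Hmox1, where *APOE3* cells had 271 ± 17.6 CPM in males and 245 ± 12.3 CPM in females, it was 0.15 (-0.059 to 0.36). These intervals leave room for sex differences as large as the genotype effect of Hmox1 itself.

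Cell cycle transcripts moved with genotype in the same libraries. All 30 genes of a cell cycle list were above 0 in log2FC, 27 were called higher with *APOE4*, where 6.71% of all tested genes were, and the median was 0.65. Mki67, a marker of dividing cells, rose from 255 ± 69.6 to 410.1 ± 80.5 CPM (log2FC 0.68, SE 0.146, adjusted p = 0.00824). A score, the average log2 CPM over the list, averaged 5.67 ± 0.350 over the *APOE3* and 6.26 ± 0.271 over the *APOE4* cultures (n = 8, exact permutation adjusted p = 0.00594). Members differed in how they followed this score among cultures of the same genotype and sex, a comparison chosen after the data had been seen and covering 9 relations over 16 libraries.

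Alas1 rose with the score (Pearson r 0.79, permutation p = 0.00154, adjusted p = 0.0139, and Spearman rho 0.82, permutation p = 0.00102, adjusted p = 0.00918), with r 0.70 after the 2 libraries with the most extreme scores were left out. Ppox fell with it (r -0.70, permutation p = 0.00571, adjusted p = 0.0257, and rho -0.69, permutation p = 0.00839, adjusted p = 0.0378), with r -0.58 after the same omission. Blvra had r 0.67 (permutation p = 0.0169, adjusted p = 0.0507) and rho 0.69 (permutation p = 0.0134, adjusted p = 0.0403), and r 0.80 without the 2 libraries. Hmox1 had r 0.33 (permutation adjusted p = 0.578) and Blvrb r -0.023 (permutation adjusted p = 0.934).

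When the score entered the fit beside genotype, 0 of the 12481 genes passed in edgeR and 897 had an unadjusted p under 0.05, so no enzyme kept its call. The log2FC values themselves parted. That of Alas1 went from 0.25 to 0.0041 (SE 0.0783, unadjusted p = 0.958) and that of Ppox from -0.22 to -0.061 (SE 0.0645, unadjusted p = 0.355). Hmox1 stood at -0.28 (SE 0.0695, unadjusted p = 0.000569, adjusted p = 0.406) and Blvrb at -0.63 (SE 0.166, unadjusted p = 0.00104, adjusted p = 0.450), close to their values without the score or farther from 0. The score and genotype are correlated in these libraries, and what part proliferation has in the enzyme differences was not tested.

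**Figure D4:**
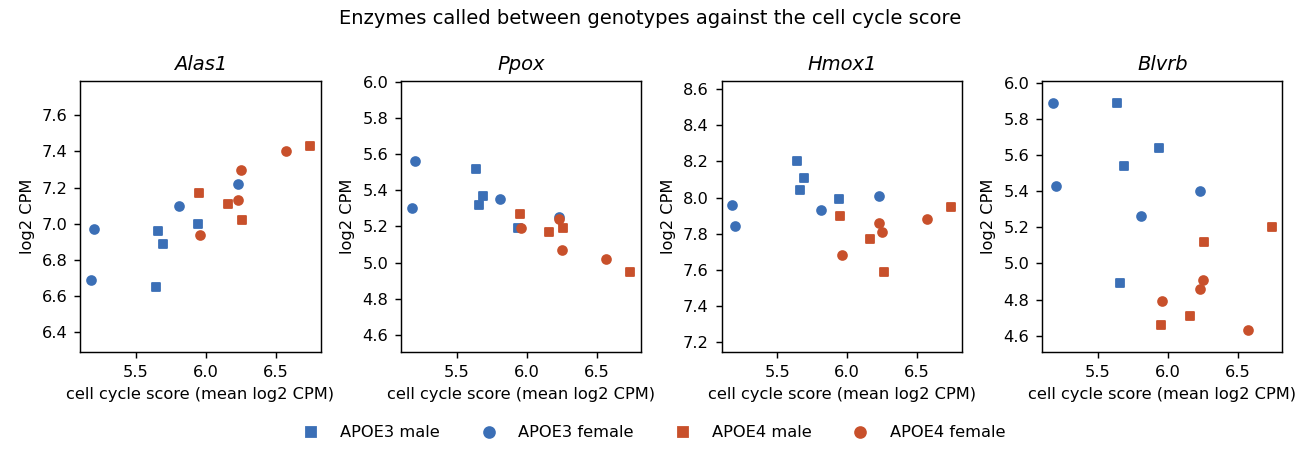
Log2 CPM of Alas1, Ppox, Hmox1 and Blvrb against the cell cycle score (mean log2 CPM of 30 genes) in the 16 libraries, colored by genotype and with a symbol for sex. Alas1 climbs and Ppox declines along the score within groups (r 0.79 and -0.70), while Blvrb shows no slope (r -0.023) and a step between genotypes.

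Among the 36 pairs of members, 0 had a correlation that passed adjustment across libraries of the same genotype and sex, and 2 had an unadjusted permutation p under 0.05. The genes most like each called member in these residual values (Pearson r over 16 libraries, all tested genes searched, given as a description) were Cxcl16 (0.95), Plp2 (0.94) and Esyt1 (0.93) for Alas1, and Usf2 (0.89), Ppa2 (0.88) and Arfrp1 (0.88) for Ppox. For Hmox1 they were Sh3bp5l (0.86), Romo1 (0.86) and Bax (0.85), and for Blvrb Rpl7 (0.90), Dctn5 (0.87) and Paip2 (0.84). All 3 genes most like Alas1 were higher with *APOE4*, with log2FC values of 0.15 to 0.44. Of those most like Ppox, Usf2 (log2FC -0.16, edgeR adjusted p = 0.0431) and Arfrp1 (-0.19, 0.0165) were lower, and Ppa2 (-0.15, 0.245) was not called. None of the 3 most like Hmox1 was called, with log2FC values of -0.10 to 0.051. None of the 3 most like Blvrb differed past the threshold between genotypes, with log2FC values of -0.017 to 0.054.

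Genes that sense heme or control these enzymes were read as a list of 11, of which 0 were higher and 4 lower with *APOE4*, at a median log2FC of -0.19. Over all tested genes, 6.71% were higher and 6.09% lower. This list, like the others, was written with earlier results of these data known, so its counts describe these genes only. Bach1, a repressor that heme displaces from the Hmox1 promoter, fell from 46.4 ± 7.07 to 37.9 ± 5.47 CPM (log2FC -0.29, SE 0.0954, adjusted p = 0.0485), and Mafg, its partner, from 96.5 ± 6.28 to 84.6 ± 5.84 CPM (-0.19, SE 0.0458, adjusted p = 0.0135). The heme-binding receptors Nr1d1 and Nr1d2, also known as Rev-Erb alpha and beta, were lower as well. Nr1d1 fell from 85.9 ± 15.4 to 59.6 ± 14.8 CPM (-0.53, SE 0.136, adjusted p = 0.0180) and Nr1d2 from 28.9 ± 3.79 to 20.0 ± 3.90 CPM (-0.53, SE 0.106, adjusted p = 0.00685). Eif2ak1, the kinase that halts translation when heme is short, had the highest value of the list at 0.024 (SE 0.0376, adjusted p = 0.714).

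Of 15 genes of heme transport and handling, 13 were tested, 0 were higher and 2 lower with *APOE4*, at a median log2FC of -0.043. Their share lies near the 12.8% called in either direction over all tested genes. Slc25a38, the mitochondrial glycine carrier that feeds Alas1, fell from a mean of 26.9 to 22.9 CPM (log2FC -0.23, SE 0.0636, adjusted p = 0.0232). Slc48a1, which moves heme out of lysosomes, fell from 139 ± 6.62 to 128 ± 5.03 CPM (-0.13, SE 0.0339, adjusted p = 0.0215). The highest value was that of Hebp1, a heme-binding protein, at 0.26 (SE 0.145, adjusted p = 0.240).

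The 4 calls were also compared under 8 other settings of normalization, filter, covariate and test, and Alas1, Ppox, Hmox1 and Blvrb passed in each of them. The fit that included the cell cycle score, described above, was the exception.

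**Figure D5:**
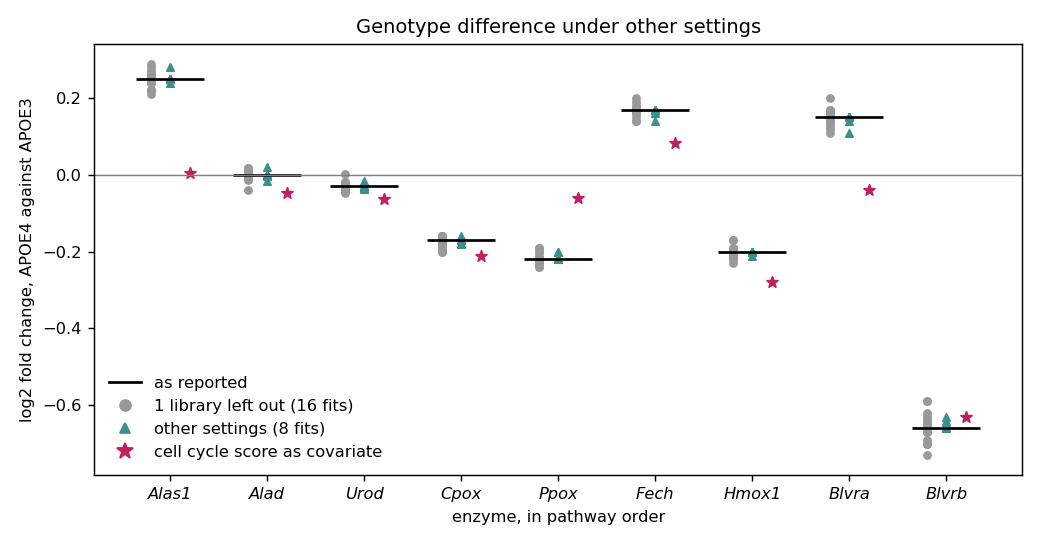
Log2FC of each enzyme as reported (black lines), in 16 fits that each left out 1 library (gray), under 8 other settings (teal) and with the score of cell cycle genes in the fit (pink stars). The stars of Alas1 and Ppox lie near 0 at 0.0041 and -0.061, and those of Hmox1 and Blvrb at -0.28 and -0.63.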

How the data were processed

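RNA was measured in 16 primary cultures by poly-A sequencing from 100 ng of RNA with 17 cycles of PCR and paired reads of 50 bases. The authors deposited raw counts of reads per gene without normalization; the submitters' processing notes name STAR, featureCounts, mm10 and hg38, and versions, annotation release and strand setting are not given in the sources used here. Gene symbols and positions came from GENCODE vM21 (GRCm38.p6), in which 38872 of 39056 mouse identifiers were found. Reads carry no molecular identifiers, so intervals cover the spread between cultures and depth covers counting error only.

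Counts were fitted in R 4.3.3 with edgeR 4.0.16 (filterByExpr by genotype, TMM, genotype as the single term, quasi-likelihood F test, Benjamini-Hochberg adjustment over 12481 genes, threshold 0.05). The SE of a log2 fold change was its size over the square root of F, and the 95% interval used the t distribution with the fit's total degrees of freedom. Sexes came from 1 fit of 4 groups. For log2 CPM the prior count was 2. Single values were tested by exact permutation, correlations with 100000 shuffles within genotype and sex. Alternatives were DESeq2 1.42.0 (size factors and Wald test), limma 3.58.1 voom with quality weights, sva 3.50.0 with 1 surrogate variable, sex or the cell cycle score as a covariate, no filter, at least 10 counts in every library, GC content and length correction by splines with 5 degrees of freedom, a prior count of 0.5 and each library left out. The fits were tested on simulated data. Text and figures used Python 3.11.15 and matplotlib 3.10.9.

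Genes named are the 9 members, other pathway and heme a and c assembly enzymes, the called genes and extremes of the heme transport and regulator lists, and the 3 genes most like each called member. Egfl7, Mki67, Cd68, Mrc1, Tubb3, Gja1, Gfap, Snap25, Tagln, Acta2 and Cspg4 were named after their values were seen. A gene of the lists is not reported here. Members and lists were chosen with earlier results of these data known. Promoters are those of RefSeq nearest to the gene start; Fech and Hmox1 had no entry used here. Sequences within exons of other transcripts, as upstream of Alas1, were not printed.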

Additional observations from a re-analysis of the deposited data

Results flagged for a closer look

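Of 40 groups of 8 libraries checked for 1 standing apart, 3 had a gap above Dixon's critical value for 8 values, and chance alone flags about 1 in 20 groups. *APOE4* replicate 35 was the highest of its group in Alad, at 34.1 CPM, with a gap of 0.540 of the group's range in log2 CPM, and the log2 fold change of Alad without it was -0.039 in place of 0.00042. *APOE3* replicate 25 was the highest in Urod, at 29.7 CPM, with a gap of 0.633, and without it the log2 fold change was 0.0024 in place of -0.030. *APOE4* replicate 38 was the lowest in the ratio of Hmox1 to Fech, at 2.62 on the log2 scale, with a gap of 0.614. Without it the log2 difference of that ratio was -0.31 in place of -0.37 and the exact permutation adjusted p was 0.00969. It had the lowest Hmox1, at 193 CPM, and the highest Fech, at 31.4 CPM, of all 16 libraries.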

How the results depend on the processing

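No paired analysis was possible because the genotypes share no replicate numbers in the labels. Ppox, Hmox1 and Blvrb passed in all 16 fits without 1 library and in 8 of 9 other settings, the exception being the cell cycle score as a covariate. Over those omissions 846 to 2127 genes were called, with 853 without *APOE3* replicate 30, 952 without *APOE3* replicate 33 and 846 without *APOE4* replicate 41, and 3 to 6 members. With that score in the fit 0 genes and 0 members were called in place of 1597 and 4, Blvra turned to -0.038 and Alad to -0.047. Alad, near 0 throughout, also turned sign with DESeq2's size factors (-0.00026), no filter (-0.0030), 1 surrogate variable (-0.0012), DESeq2's Wald test (-0.0014) and voom (-0.017). In males 24 genes were called without a filter and 35 by DESeq2, and 0 to 1 over the omissions. In females 366 were called without a filter, 11 with at least 10 counts in every library and 418 by DESeq2, and 0 to 879 over the omissions, with 879 without *APOE3* replicate 31, 55 without *APOE3* replicate 32 and 261 without *APOE4* replicate 35. Blvrb was the 1 member called in females without a filter and by DESeq2 (0 to 1 over the omissions). Leaving out 1 library moved Alad over -0.039 to 0.019 and Urod over -0.046 to 0.0024, in males Alad over -0.036 to 0.10 and Urod over -0.078 to 0.010, in females Alad over -0.067 to 0.0019 and Urod over -0.047 to 0.014, and the difference between sexes over -0.019 to 0.069 for Urod, -0.093 to 0.035 for Ppox and -0.26 to 0.044 for Blvrb. The log2 ratio of Alad to Alas1 ranged from -0.31 to -0.20 and that of Cpox to Urod from -0.16 to -0.12. The causes of these shifts were not tested.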

Other observations

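Heme a and heme c are made from the heme that Fech releases and are built into the cytochromes of the respiratory chain. None of the 3 enzymes of this branch was called between genotypes in edgeR, and none had an unadjusted p under 0.05. Over all tested genes 12.8% were called, and 3 genes are too few to be told apart from that share. Cox10, which adds the farnesyl tail of heme a, had 20.6 ± 1.19 CPM in *APOE3* and 21.2 ± 1.36 CPM in *APOE4* cells (log2 fold change 0.039, SE 0.0518, adjusted p = 0.666). Cox15, which oxidizes it further, had 34.4 ± 2.22 and 33.0 ± 2.25 CPM (-0.061, SE 0.0499, adjusted p = 0.450). Hccs, which attaches heme to cytochrome c, had 13.4 ± 1.15 CPM in *APOE3* cells (log2 fold change -0.047, SE 0.0760, adjusted p = 0.731).

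Markers of other brain cells were compared as sums per library, beside those of brain endothelial and red blood cells. None of these 8 marker sums passed the exact permutation test after adjustment. The nearest were neuron markers, with a median of 13.1 CPM in *APOE3* and 14.9 CPM in *APOE4* libraries (exact permutation adjusted p = 0.0624), and astrocyte markers, at 31.9 to 41.7 and 33.4 to 43.4 CPM (exact permutation adjusted p = 0.0898). Most of the neuron sum was Tubb3 (means 9.29 and 10.7 CPM), and most of the astrocyte sum was Gja1 (33.5 and 36.6 CPM). Snap25 did not exceed 2 counts in any library, and Gfap had means of 0.124 and 0.113 CPM. Pericyte and smooth muscle markers summed to 188 to 355 and 223 to 340.0 CPM. Most of that sum was Tagln (means 161 and 178 CPM) and Acta2 (83.8 and 80.3 CPM), and the highest of the rest was Cspg4 (7.05 and 7.64 CPM). Fibroblast markers summed to 13.3 to 65.3 and 10.4 to 85.2 CPM, and oligodendrocyte markers to 0.670 to 1.97 and 0.504 to 1.65 CPM. The part of these other cells in the enzyme differences was not tested.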
